A study of Mus musculus with 18 samples.

Results

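The chemokine genes of the mouse uterus were examined as a family of 58 genes, 38 ligands and 20 receptors, among the 25791 genes of the deposited expression table. Members were the genes whose symbol begins with Ccl, Cxcl, Ccr, Cxcr, Cx3cl, Cx3cr, Xcl or Xcr and goes on with a digit, a rule that uses no measured value. The rule leaves out the atypical receptors Ccrl1 and Ccrl2, and the chemokines Pf4 and Ppbp, whose symbols do not follow it. Values are FPKM, the fragments per kilobase of transcript, scaled to the fragments of the library, so levels can be set side by side between genes. Of the 58 members, 42 reached 1 FPKM in at least 3 of 18 libraries and were tested, 32 ligands and 10 receptors, and 16 stayed under that level.

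RNA came from cross sections of uterus from mice aged 12 weeks, of the mixed strain 129Sv X C57BL/6. WT mice were wild type, and KO mice were by the labels uterine-specific Tsc2-null, that is, with the gene for TSC2 deleted in the uterus. TSC2 restrains the growth kinase complex mTORC1. The labels name neither the promoter that drove the deletion nor the cells that lost the gene. Both genotypes were studied with ovaries in place (intact), after ovaries were removed at 4 weeks (ovx), and after removal at 4 weeks with a 17β-estradiol pellet of 0.5 mg, made to release for 90 days and kept for 8 weeks (E2). Each of the 6 groups held 3 libraries, which keep the replicate numbers of their titles: 1, 2 and 4 for WT intact, 1, 3 and 4 for KO intact, 1, 2 and 3 for WT ovx, 1, 2 and 4 for KO ovx, 1, 2 and 5 for WT E2, and 1, 2 and 3 for KO E2. Values of a group are given in that order. The cycle stage of the intact mice and the number of animals behind each library are not given, so a p-value here reflects the spread between libraries only, which may be technical.

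Chemokines are small secreted or membrane-held proteins that direct the movement of white blood cells, and their receptors are G protein-coupled receptors on the moving cells. Ligands are named for the spacing of their first cysteines, as CC, CXC, CX3C and XC chemokines, and a receptor often takes several ligands of the same class. In the uterus, estradiol is known to bring neutrophils and macrophages into the tissue, and epithelial, stromal and resident immune cells all make chemokines there.

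Some facts of the whole series bear on the values below. The FPKM of a library added up to 216032 at the lowest and 591668 at the highest, and WT E2 replicate 2, the highest, held 26.6% of its sum in 1 gene, LOC236598. Tsc2 was listed at 2.04 to 2.51 FPKM in WT intact and 1.62 to 1.98 in KO intact, at 3.17 to 3.49 after ovx in WT and 2.39 to 3.33 after ovx in KO, and at 2.38 to 2.73 in WT E2 and 1.75 to 2.42 in KO E2, and averaged over the states KO lay below WT by a log2 difference of -0.18 ± 0.07 (SE, limma adjusted p = 0.158). The libraries of the genotypes lay close together for Tsc2 and overlapped in ovx and E2. These values alone therefore do not establish the deletion that the labels name. Esr1, the estrogen receptor that marks uterine tissue, was present in every library at 0.612 to 15.1 FPKM, lowest in KO E2. The ratios of the lowest values between libraries recur within 4 sets of libraries, found from the values alone and named by no label: set 1 with WT intact 1 and 4 and KO intact 1 and 4, set 2 with WT intact 2 and KO intact 3, set 3 with WT ovx 1 and 3, all 3 KO ovx, WT E2 5 and KO E2 3, and set 4 with WT ovx 2, WT E2 1 and 2 and KO E2 1 and 2. Intact and ovx libraries shared no set, so between them the set and the ovaries cannot be told apart. KO ovx replicate 4 stood apart in its group, with a summed neutrophil marker list of 238 FPKM against 25.6 and 21.4 FPKM in the others, a macrophage and monocyte list of 574 against 37.8 and 51.6, and an adipocyte list of 133 against 0.237 and 0.158.

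Below, a difference is on the scale of log2(FPKM + 1) and carries its standard error (SE) from 1 linear model of the 18 libraries, fitted with limma, and a gene was called when its p-value, adjusted over 13898 genes, was under 0.05. The added 1 FPKM understates the fold of genes with low levels. Of the 42 tested members, 11 reached 1 FPKM in E2 libraries alone, so these had to be higher there to be tested at all. They were Ccl9, Ccl19, Ccl20, Ccl22, Ccr1, Ccr1l1, Ccr7, Cxcl9, Cxcl13, Cxcr2 and Cxcr6. Of these, 3 reached it in KO E2 libraries alone: Ccl19, Ccr1l1 and Cxcr2. The members nearest the level were Cxcr3 and Ccr10 outside it, with a third-highest library at 0.760 and 0.630 FPKM, and Ccl20, Ccl22, Ccl19 and Xcl1 inside it, at 1.11, 1.12, 1.17 and 1.25 FPKM.

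**Figure D1:**
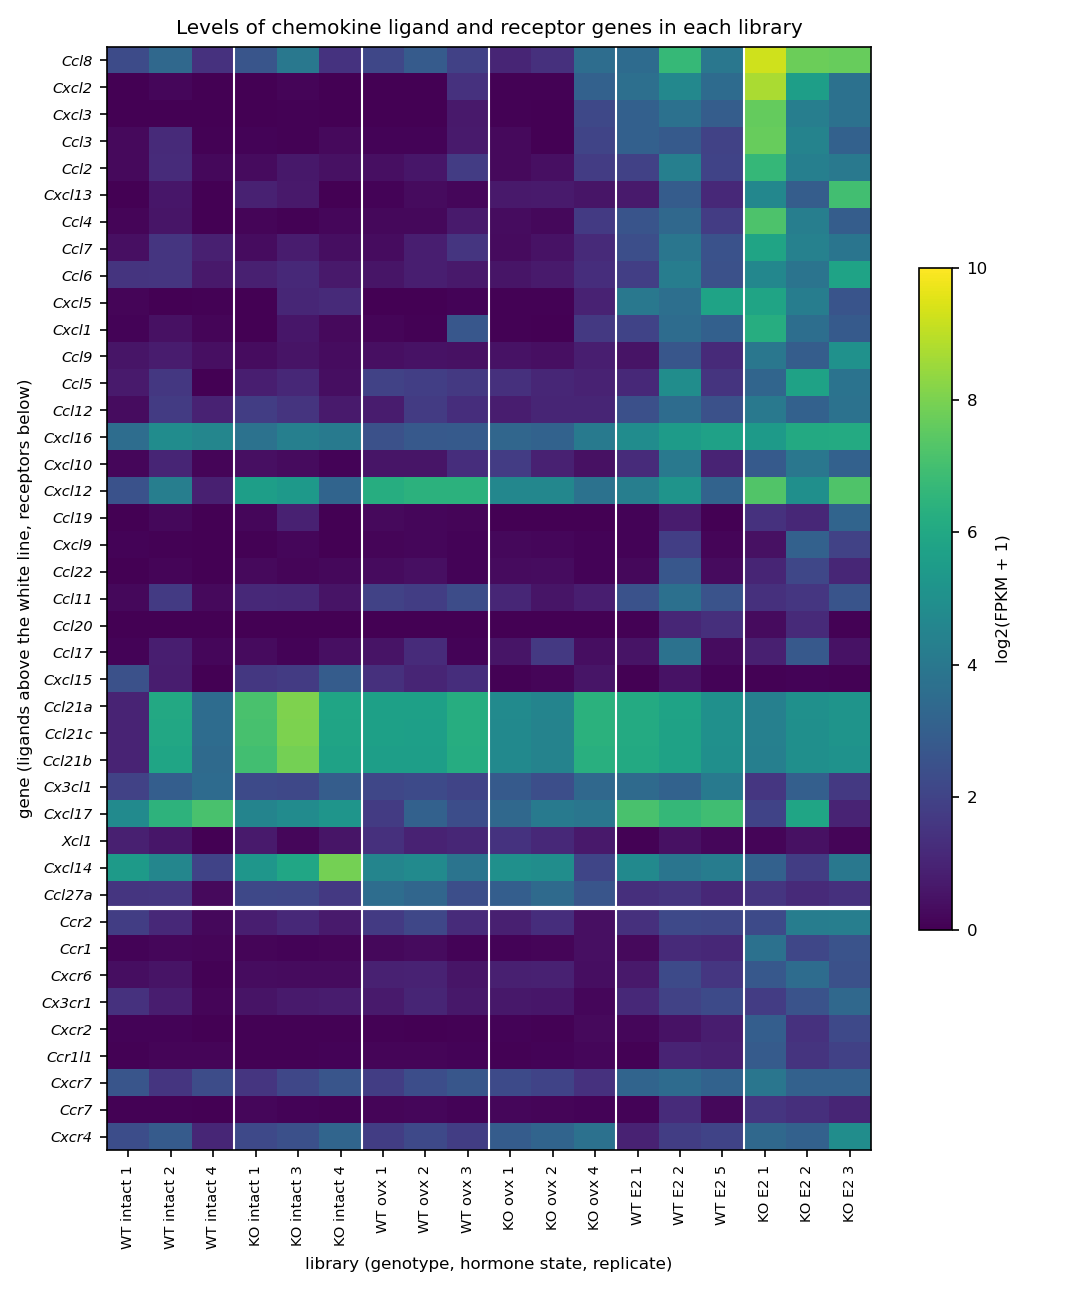
Levels of 41 of the 42 tested members in each of 18 libraries, as log2(FPKM + 1) on the colour scale, with ligands above and receptors below the white line and columns grouped by genotype and hormone state. Of the 42 members, 35 had their highest library among the 6 E2 libraries, and 28 had it in KO E2. For the 11 members that reached 1 FPKM in E2 libraries alone, the level of testing fixed this in advance. The same counts over all genes are not given.

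Counted over all tested members, more chemokine genes rose with the estradiol pellet in KO than of all genes tested. In WT the share called was near that of all genes. The contrast between the genotypes rests partly on members tested only through E2 libraries. In WT, 16 members (38.1%) rose and 3 fell between ovx and E2 (limma, adjusted p under 0.05), and the median member differed by a log2 of 0.86 against 0.24 over all genes tested. Of all genes tested, 47.5% were called in that comparison, 32.3% higher and 15.2% lower. In KO, 27 members (64.3%) rose and 2 fell, with a median of 2.13 for members and 0.07 for all genes, where 27.1% of all genes were called, 15.9% higher and 11.2% lower. Leaving out the 11 members that reached 1 FPKM in E2 libraries alone, 15 of 31 rose in WT and 18 of 31 rose in KO. For these 31 the genotypes thus lay closer together, beside 32.3% and 15.9% of all genes called higher. Library sets 3 and 4 held both groups in WT, and set 3 in KO. Each call in WT kept its direction within set 3 (1 E2 library against 2 ovx) and set 4 (2 against 1). Each call in KO did so within set 3 (1 against 3). These libraries also gave the calls, so the kept direction is no separate support. In WT the count was 11 without WT ovx replicate 1 and 12 without WT ovx replicate 2 or WT E2 replicate 2, against 19 in all, and in KO it stayed between 27 and 30 without any single library.

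Under estradiol the genotypes differed. Between KO E2 and WT E2, 14 members were higher and 2 were lower in KO, with a median log2 of 1.28 against -0.05 over all genes, and 8.49% of all genes were called, 4.91% higher and 3.58% lower. Of the 31 members that reached 1 FPKM outside E2 as well, 6 were higher, among them Ccl6, Ccl7, Ccl8, Ccr2 and Cxcr4. The 14 differences were also positive, and the 2 others negative, within set 3 (1 library against 1) and within set 4 (2 against 2). Medians there were 2.20 and 1.76 for the higher and -4.18 and -1.97 for the lower members. These libraries also gave the calls, so the signs are no separate support. The call depends on the spread estimated from all 18 libraries: a fit to the 6 E2 libraries alone called 0 members, with 20 at an unadjusted p under 0.05. Without WT E2 replicate 1 the count fell to 4, Ccl9, Ccr1, Ccr1l1 and Cxcr2, and without WT E2 replicate 5 to 7. These 4 were all among the 11 members tested only through E2 libraries, and none of the 31 others was called without WT E2 replicate 1. WT E2 replicate 1 also stood apart on the ovary and oviduct marker list, summed at 160.0 FPKM against 9.52 and 14.4 in the other WT E2 libraries and 2.40 to 5.46 in KO E2. The uterus list was summed at 43.3 to 75.3 FPKM in WT E2 and 12.6 to 27.3 in KO E2. The smooth muscle list was at 582, 525 and 135 in WT E2 and 152, 155 and 216 in KO E2. The adipocyte list was at 4.83, 45.3 and 2.72 in WT E2 and 428, 4.91 and 2311 in KO E2. The part of these tissues in the difference between the genotypes was not tested. The comparisons of E2 with ovx and of KO E2 with WT E2 share the E2 libraries and are not independent of each other.

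**Figure D2:**
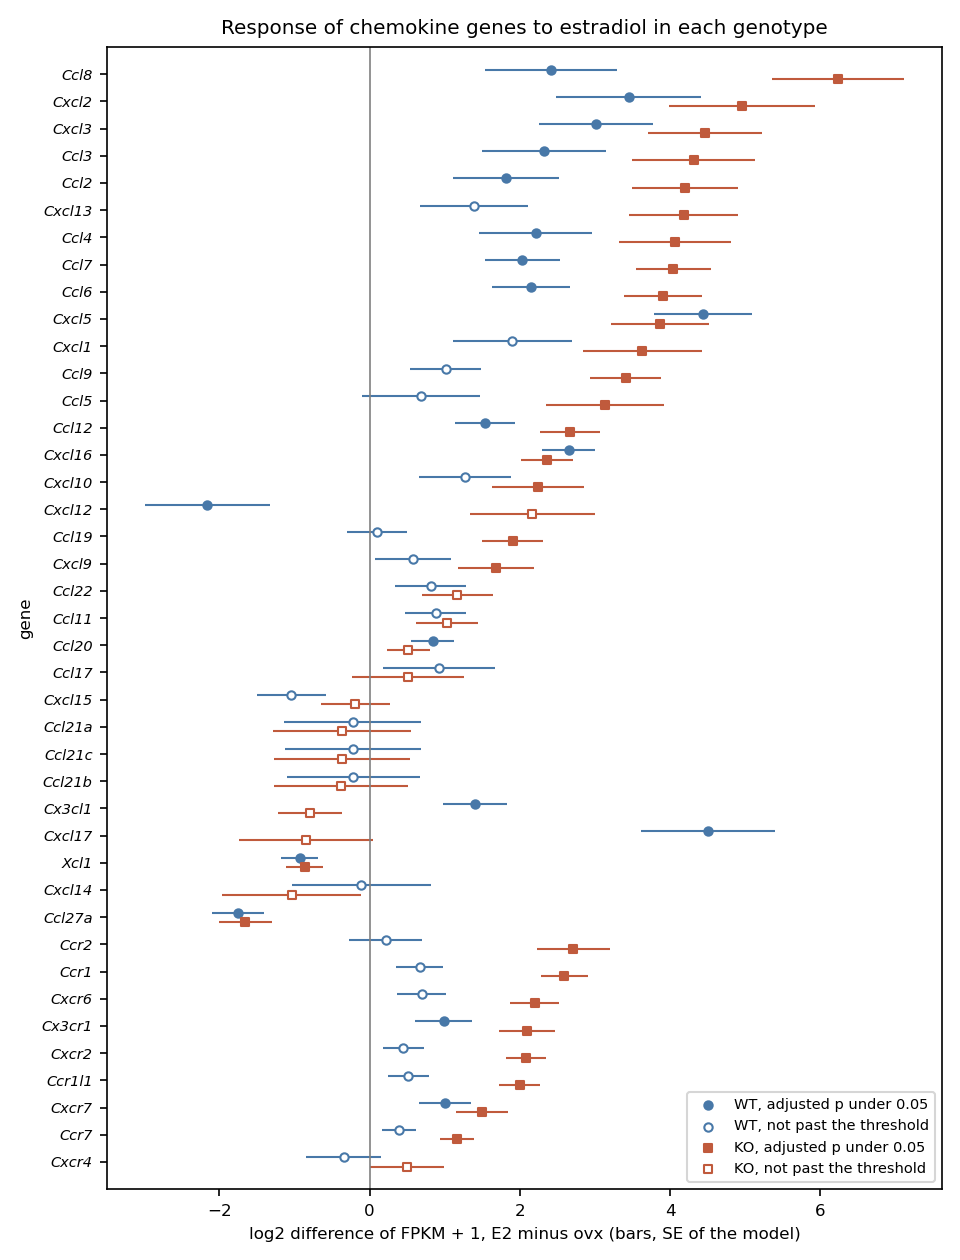
Log2 difference of FPKM + 1 between E2 and ovx for 41 of the 42 tested members in WT (blue circles) and KO (red squares), with bars of 1 SE and filled symbols where the adjusted p was under 0.05. Most KO symbols lie to the right of the WT symbol of the same gene, whereas those of Cxcl17 and Cx3cl1 are among the ones to the left.

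**Figure D3:**
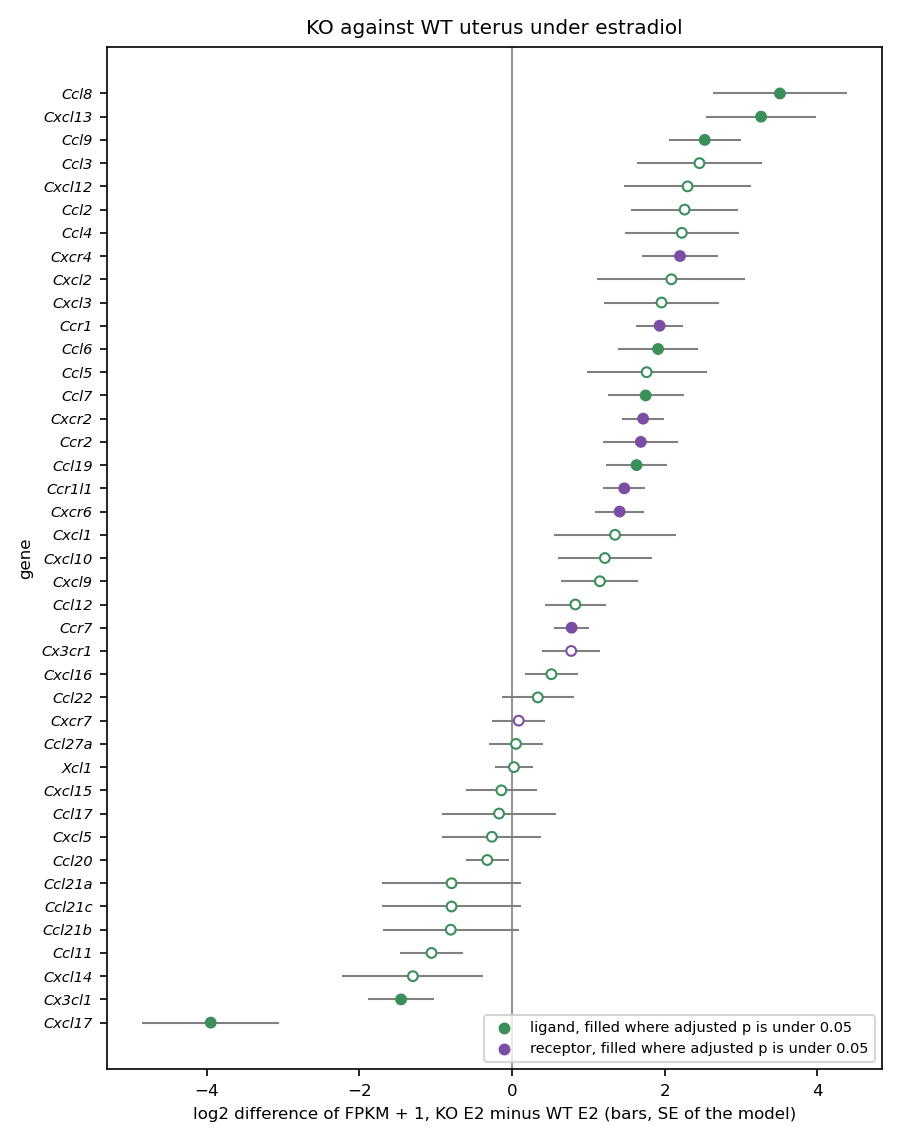
Log2 difference of FPKM + 1 between KO E2 and WT E2 for 41 of the 42 tested members, ligands in green and receptors in purple, with bars of 1 SE and filled symbols where the adjusted p was under 0.05. Of 9 receptors 7 are filled on the right, and of 32 ligands 6 are filled on the right and 2 on the left, Cx3cl1 and Cxcl17.

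The neutrophil attractants Cxcl1, Cxcl2, Cxcl3 and Cxcl5 carry the ELR amino acid motif, bind CXCR2 and lie in the CXC cluster of chromosome 5. Cxcl1, Cxcl2 and Cxcl3 share a stretch before their start site that is shown here because all 3 genes rose with estradiol in KO and NF-kB is a known inducer of them. They did not keep a fixed ratio: over the 9 libraries with both above 0.1 FPKM, Cxcl2 was 0.304 to 5.77 times the Cxcl1 level. The 250 bases before each start site follow, 5′ to 3′ on the gene's strand, from RefSeq on GRCm38.p6, with matches of the NF-kB type motif GGGAANTTC in capitals.
Cxcl1, chr5:90890995-90891244, plus strand: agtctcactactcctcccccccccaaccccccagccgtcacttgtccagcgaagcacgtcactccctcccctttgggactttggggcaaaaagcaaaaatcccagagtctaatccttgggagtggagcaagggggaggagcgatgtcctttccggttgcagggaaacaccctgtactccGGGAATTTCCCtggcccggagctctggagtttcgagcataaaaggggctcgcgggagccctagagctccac
Cxcl2, chr5:90903649-90903898, plus strand: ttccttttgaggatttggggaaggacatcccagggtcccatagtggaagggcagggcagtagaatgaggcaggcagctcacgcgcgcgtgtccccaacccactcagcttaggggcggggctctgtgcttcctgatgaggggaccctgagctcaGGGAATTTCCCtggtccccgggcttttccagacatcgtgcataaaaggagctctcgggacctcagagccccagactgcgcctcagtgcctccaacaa
Cxcl3, chr5:90785851-90786100, plus strand: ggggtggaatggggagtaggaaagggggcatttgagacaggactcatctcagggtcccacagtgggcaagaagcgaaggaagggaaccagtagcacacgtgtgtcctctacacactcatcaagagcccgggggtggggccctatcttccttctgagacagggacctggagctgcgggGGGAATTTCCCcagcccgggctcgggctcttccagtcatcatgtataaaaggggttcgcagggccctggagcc
In these 3 genes the letters match on both strands, as overlapping matches that span positions -71 to -61, -97 to -87 and -73 to -63 from the start site. The motif was searched on both strands in windows from 250 bases before to 50 after the start, and 1.08% of 32817 such windows hold it. Windows were found for 41 of 58 members, and those of Ccl1, Ccr3, Cxcl9 and Cxcl10 held the motif as well. The spelling was chosen and shortened with matches already in view, and a match describes letters only.

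Cxcl2 was listed at 0.0194, 0.0166 and 1.68 FPKM in WT ovx and at 11.6, 24.5 and 10.3 in WT E2, and at 0.0553, 0.0284 and 7.53 in KO ovx and 423, 47.7 and 12.4 in KO E2. Every E2 library lay above every ovx library of its genotype, and KO E2 replicate 1 stood far above all others. It rose with estradiol by a log2 of 3.45 ± 0.97 in WT (adjusted p = 0.00934) and 4.96 ± 0.97 in KO (0.00178). Cxcl3 ran in parallel, at 7.49, 12.2 and 6.76 FPKM in WT E2 and 199, 18.3 and 12.1 in KO E2 against at most 0.605 and 3.55 in WT and KO ovx. Its rise was 3.02 ± 0.76 in WT (0.00494) and 4.46 ± 0.76 in KO (0.000615). Both genes had their highest ovx value in KO ovx replicate 4, the library with the high neutrophil list.

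Cxcl5, an epithelial member of the group, was at 14.9, 11.5 and 55.2 FPKM in WT E2 and 55.6, 17.9 and 5.04 in KO E2, and no ovx library exceeded 0.925. The genotypes overlapped under estradiol, and Cxcl5 rose by 4.43 ± 0.65 in WT (adjusted p = 0.00018) and 3.86 ± 0.65 in KO (0.00056). Cxcl1 was at 3.03, 10.5 and 7.47 FPKM in WT E2 and 73.2, 11.4 and 6.05 in KO E2. WT ovx replicate 3, at 5.50 FPKM, overlapped the WT E2 libraries, and the WT difference of 1.90 ± 0.79 was not called (0.0600), whereas Cxcl1 rose by 3.63 ± 0.79 in KO (0.00384). Between KO E2 and WT E2 none of the 4 passed the test: the median difference was 1.65, and the libraries of the genotypes overlapped for each gene. Cxcl15, a further CXC ligand of chromosome 5, went the other way in WT. It was at 1.64, 1.05 and 1.48 FPKM in WT ovx and 0, 0.420 and 0.0806 in WT E2, without overlap. That difference was not called, but it was with a pseudocount of 0.1, after median-ratio scaling or in the compared groups alone. In KO the states overlapped, and no E2 library of either genotype was above 0.420 FPKM.

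**Figure D4:**
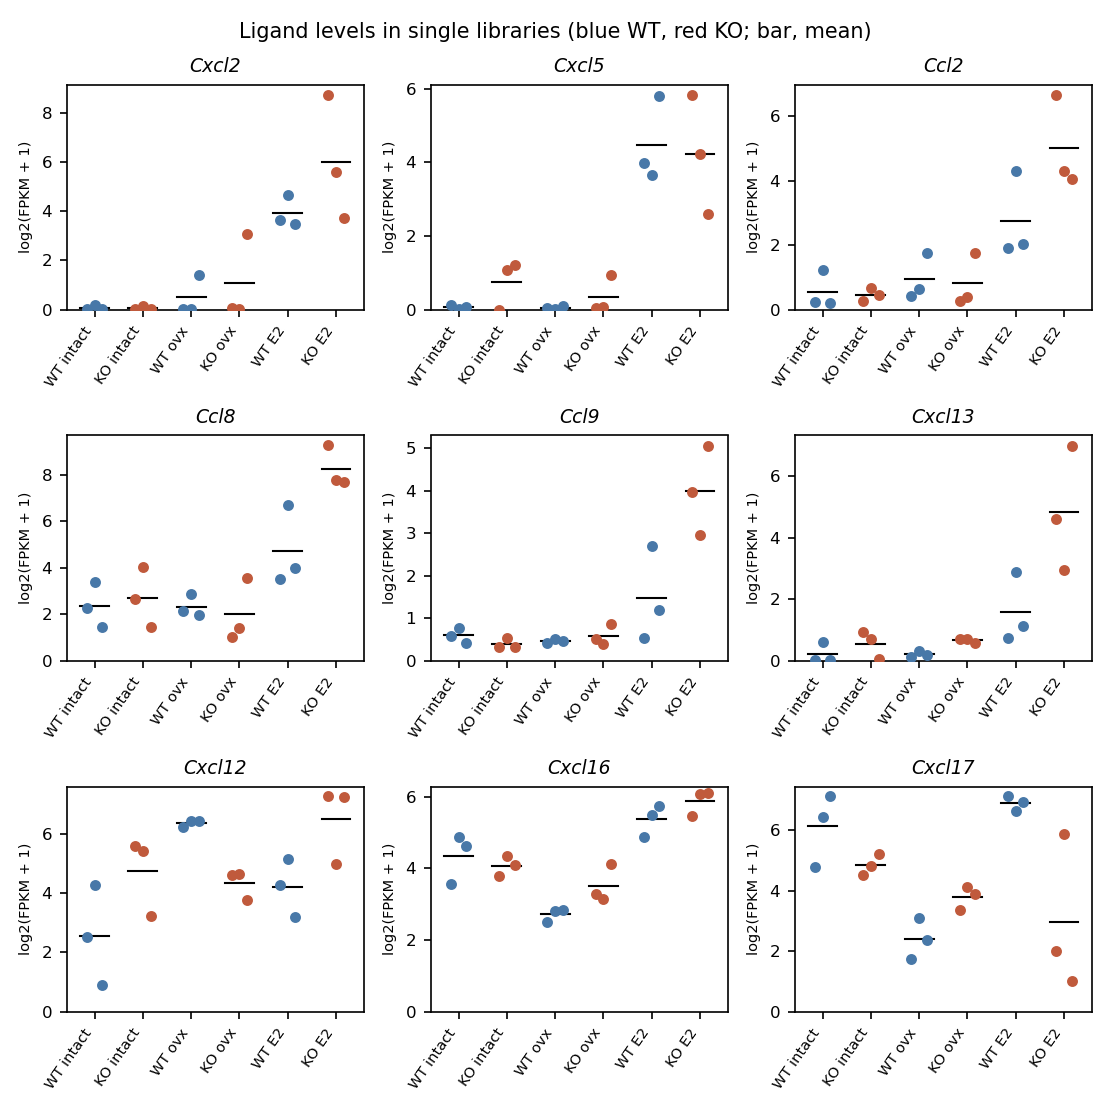
Levels of 9 ligands as log2(FPKM + 1) in each library, blue for WT and red for KO, with a bar at the mean of 3 libraries. Cxcl2, Ccl2 and Ccl8 have their highest point in KO E2 replicate 1, Ccl9 and Cxcl13 in KO E2 replicate 3, and Cxcl17 is low in 2 of 3 KO E2 libraries.

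The CC ligands of chromosome 11 lie close together in the table's coordinates, and 10 of 11 were tested. Of these, 7 rose with estradiol in WT and 9 in KO, and 4 were higher in KO E2 than in WT E2: Ccl6, Ccl7, Ccl8 and Ccl9. The shares of all genes called higher in these comparisons were 32.3%, 15.9% and 4.91%. The summed level of the 11 ligands was 43.2, 228 and 45.0 FPKM in WT E2 and 1185, 377 and 366 in KO E2, against at most 17.2 in WT ovx and 25.0 in KO ovx. The KO E2 libraries thus all lay above the WT E2 libraries, of which replicate 2 was the highest.

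Ccl8, an attractant of monocytes and lymphocytes, had the highest level of any member in any library. It was at 3.35, 6.32 and 2.83 FPKM in WT ovx and 10.3, 103 and 14.8 in WT E2, and at 1.03, 1.64 and 10.8 in KO ovx and 615, 215 and 204 in KO E2. The 3 KO E2 libraries were above all others. Ccl8 was higher in KO E2 than in WT E2 by a log2 of 3.51 ± 0.88 (limma adjusted p = 0.0222), a call lost without WT E2 replicate 1, WT E2 replicate 5 or KO E2 replicate 1. Its rise with estradiol was 2.42 ± 0.88 in WT (0.0337), lost without WT ovx replicate 1, WT ovx replicate 3 or WT E2 replicate 2, and 6.24 ± 0.88 in KO (0.000121).

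Ccl2, Ccl7 and Ccl12, ligands of CCR2 that draw monocytes from the blood, rose with estradiol in both genotypes. Ccl2 was at 2.79, 18.9 and 3.08 FPKM in WT E2 and 101, 19.0 and 15.6 in KO E2, with ovx libraries between 0.204 and 2.40. WT E2 replicate 2 lay within the range of KO E2, and the difference between genotypes of 2.26 ± 0.70 was not called (adjusted p = 0.0602). Its rise was 1.82 ± 0.70 in WT (0.0445), lost without WT ovx replicate 1, WT ovx replicate 2 or WT E2 replicate 2, and 4.20 ± 0.70 in KO (0.000553).

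Ccl7 was at 4.23, 14.4 and 4.75 FPKM in WT E2 and 55.7, 20.1 and 13.7 in KO E2. KO E2 replicate 3 lay below WT E2 replicate 2, and Ccl7 was higher in KO E2 by 1.75 ± 0.50 (adjusted p = 0.0416), a call lost without WT E2 replicate 1, WT E2 replicate 5 or KO E2 replicate 1. Its rise with estradiol was 2.04 ± 0.50 in WT (0.0043) and 4.04 ± 0.50 in KO (4.07e-05). Ccl12 was at 4.40, 10.5 and 4.52 FPKM in WT E2 and 15.3, 7.56 and 12.7 in KO E2, rising by 1.54 ± 0.40 in WT (0.00584) and 2.67 ± 0.40 in KO (0.000201). Its difference between genotypes under estradiol, 0.83 ± 0.40, was not called (0.235). Ccl11, which draws eosinophils, was called between ovx and E2 in neither genotype, although every E2 library lay above every ovx library of its genotype. It was at 2.94, 2.48 and 4.05 FPKM in WT ovx and 4.70, 11.9 and 4.86 in WT E2. In KO it was at 1.11, 0.466 and 0.804 FPKM in ovx and 1.63, 2.03 and 5.01 in E2. Some other settings called it, among them the replicate block in WT and quantile normalization in KO. Its highest library was WT E2 replicate 2.

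Ccl6 and Ccl9 are CCR1 ligands made mainly by myeloid cells. Ccl9 was at 0.449, 5.43 and 1.28 FPKM in WT E2 and 14.6, 6.72 and 32.4 in KO E2, and under 0.9 in every intact and ovx library. The E2 groups did not overlap, and Ccl9 was higher in KO E2 by 2.52 ± 0.47 (adjusted p = 0.00453), a call kept without any single library. Ccl9 was tested only through its E2 libraries. Ccl6 was at 2.62, 17.8 and 4.59 FPKM in WT E2 and 24.0, 13.5 and 55.1 in KO E2, higher in KO by 1.91 ± 0.52 (0.0334) with WT E2 replicate 2 inside the KO range, and the call was lost without WT E2 replicate 1 or 5 or KO E2 replicate 1 or 3. Its interval in the table overlaps the locus LOC100504464, and how fragments were shared between them is not stated.

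Ccl3, Ccl4 and Ccl5 attract monocytes and T cells, and Ccl3 and Ccl5 bind CCR1. Ccl3 was at 7.37, 6.21 and 2.92 FPKM in WT E2 and 202, 21.1 and 7.66 in KO E2, and Ccl4 followed it at 5.08, 9.41 and 2.44 in WT E2 and 146, 18.3 and 6.79 in KO E2. Ccl3 did not overlap between the genotypes but its difference of 2.45 ± 0.82 was not called (adjusted p = 0.0809), nor was that of Ccl4, 2.22 ± 0.75 (0.0811). With estradiol Ccl3 rose by 2.32 ± 0.82 in WT (0.0308) and 4.31 ± 0.82 in KO (0.0015), and Ccl4 by 2.21 ± 0.75 (0.0246) and 4.07 ± 0.75 (0.00111). In WT both calls were lost without WT ovx replicate 1, WT ovx replicate 2, WT E2 replicate 1 or WT E2 replicate 2.

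Ccl5, made by T cells and NK cells among others, was at 1.22, 28.8 and 1.82 FPKM in WT E2 and 8.55, 52.7 and 13.2 in KO E2. It stood high in the second replicate of both groups, and WT E2 replicates 1 and 5 lay below the WT ovx libraries at 2.90, 2.61 and 2.16. Ccl5 rose with estradiol in KO by 3.13 ± 0.79 (adjusted p = 0.00894), and the WT difference of 0.69 ± 0.79 was not called (0.489).

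Cxcl9 and Cxcl10 are induced by interferons and bind CXCR3. The 250 bases before the start of Cxcl10 are shown because they hold the NF-kB type motif and the interferon response type motif GAAANNGAA, at -159 to -151 and -213 to -205, both in capitals and on the gene's strand.
Cxcl10, chr5:92348890-92349139, minus strand: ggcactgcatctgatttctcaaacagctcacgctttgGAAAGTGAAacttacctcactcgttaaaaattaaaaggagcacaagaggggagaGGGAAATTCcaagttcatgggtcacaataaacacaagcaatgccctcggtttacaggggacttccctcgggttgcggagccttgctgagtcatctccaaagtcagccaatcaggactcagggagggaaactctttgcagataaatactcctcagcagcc
The interferon type motif, searched on both strands, was in 8.55% of the 32817 windows and in those of 8 members, Cxcl9 and Cxcl10 among them. Cxcl10 was at 1.36, 15.5 and 0.971 FPKM in WT E2 and 6.17, 14.4 and 7.66 in KO E2, and Cxcl9 at 0.0627, 2.64 and 0.110 in WT E2 and 0.383, 7.57 and 2.96 in KO E2. WT E2 replicate 2 stood above the other WT E2 libraries for both. They rose with estradiol in KO, Cxcl10 by 2.25 ± 0.61 (adjusted p = 0.0142) and Cxcl9 by 1.69 ± 0.50 (0.0224), and the WT differences of 1.27 ± 0.61 (0.0985) and 0.57 ± 0.50 (0.365) were not called. In KO the Cxcl10 call was lost without KO E2 replicate 2, and the Cxcl9 call without KO ovx replicate 1 or 2 or KO E2 replicate 2 or 3. Cxcl9 was tested only through its E2 libraries. The interval of Cxcl10 in the table overlaps Cxcl11 and Art3.

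Chemokines of lymphoid tissue gave mixed results. Cxcl13, which places B cells in follicles, was at 0.660, 6.44 and 1.20 FPKM in WT E2 and 23.5, 6.70 and 126 in KO E2, and under 0.9 elsewhere. KO E2 replicate 3 was the highest and KO E2 replicate 2 only just above WT E2 replicate 2. This gene was tested only through its E2 libraries. Cxcl13 was higher in KO E2 by 3.26 ± 0.72 (adjusted p = 0.012), lost without WT E2 replicate 1 or WT E2 replicate 5, and rose with estradiol in KO by 4.18 ± 0.72 (0.000691). The summed B and plasma cell list was 14.3, 102 and 30.4 FPKM in WT E2 and 76.2, 69.0 and 699 in KO E2. It was highest, like Cxcl13, in KO E2 replicate 3, and so was the adipocyte list, at 2311 FPKM. The part of either list in the Cxcl13 values was not tested.

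Ccl19, a ligand of CCR7, was at 0.0678, 0.717 and 0 FPKM in WT E2 and 1.68, 1.17 and 8.35 in KO E2. It was higher in KO E2 by 1.63 ± 0.40 (adjusted p = 0.0216), a call lost without WT E2 replicate 1 or 5. KO E2 replicate 3 was again the highest. Ccl19 was tested through its KO E2 libraries alone. The other CCR7 ligands, Ccl21a, Ccl21b and Ccl21c, are near-identical copies that the values do not separate, since Ccl21b was 0.893 to 1.00 times and Ccl21c 0.977 to 0.997 times the Ccl21a level in every library. Ccl21a was at 69.1, 54.2 and 31.2 FPKM in WT E2 and 19.6, 31.2 and 35.1 in KO E2, and differed by -0.79 ± 0.91 (0.682).

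Cxcl12, the CXCR4 ligand of stromal cells, was lower with the pellet in WT and higher in KO. It was at 74.0, 85.7 and 85.9 FPKM in WT ovx and 18.3, 34.7 and 8.19 in WT E2, and at 23.5, 23.8 and 12.6 in KO ovx and 155, 30.4 and 153 in KO E2. The ovx and E2 groups did not overlap in either genotype, and under estradiol KO E2 replicate 2 lay within the WT range. Cxcl12 fell with estradiol in WT by 2.16 on the log2 scale (SE 0.83, adjusted p = 0.0433), a call lost without any one of the 3 WT ovx libraries or without WT E2 replicate 1 or 5, and differed by 2.17 ± 0.83 in KO without being called (0.0650). The difference between the 2 responses was 4.33 ± 1.17 (0.0306), a call lost without 8 of 12 single libraries.

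The stroma list, like Cxcl12, was lower in every WT E2 library than in any WT ovx library. In KO the list overlapped between the states, unlike Cxcl12, with KO E2 replicate 2 inside the KO ovx range. The list's sums were 412, 466 and 404 FPKM in WT ovx and 161, 194 and 126 in WT E2. In KO they were 252, 285 and 118 in ovx and 970, 180.5 and 755 in E2. In WT intact the list was at 262, 445 and 44.4 FPKM beside Cxcl12 at 4.73, 18.3 and 0.849. WT intact replicate 2 thus lay within the WT ovx range for the list and below it for Cxcl12. In KO intact they were at 317, 378 and 344 beside 47.4, 41.8 and 8.32 FPKM. KO E2 replicate 2, the lowest of its group for Cxcl12, was also the lowest for the list. The part of the stroma in the Cxcl12 values was not tested. In bulk tissue, fewer cells of a type and less RNA per cell cannot be told apart, here and below.

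Of the membrane-held chemokines, Cxcl16, the ligand of CXCR6, rose in both genotypes. It was at 4.63, 5.96 and 6.17 FPKM in WT ovx and 28.1, 43.8 and 52.3 in WT E2, and at 8.78, 7.77 and 16.3 in KO ovx and 42.8, 66.3 and 67.6 in KO E2. All E2 libraries lay above all ovx libraries. The rise was 2.65 ± 0.35 in WT (adjusted p = 0.000106) and 2.36 ± 0.35 in KO (0.000186), kept without any single library, and the responses differed by -0.28 ± 0.49 (0.752). Its interval overlaps Zmynd15.

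Cx3cl1, or fractalkine, rose with estradiol in WT, was not called in KO, and its responses differed by -2.19 ± 0.60 (adjusted p = 0.0328). It was at 3.43, 3.74 and 3.18 FPKM in WT ovx and 9.92, 7.83 and 15.7 in WT E2, and at 6.21, 4.35 and 9.49 in KO ovx and 2.03, 7.25 and 2.14 in KO E2. KO E2 replicates 1 and 3 were the low ones. Cx3cl1 rose by 1.40 ± 0.43 in WT (adjusted p = 0.0145), differed by -0.79 ± 0.43 in KO (0.183), and was lower in KO E2 than in WT E2 by -1.46 ± 0.43 (0.0468), a call lost under 12 of 14 other settings, among them both rescalings of the libraries and leaving out WT E2 replicate 1 or 5 or KO E2 replicate 1 or 3. The rise in WT was lost without WT E2 replicate 5.

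Cxcl17, a chemokine of mucosal epithelium, had the largest difference between genotypes of any member under estradiol. It was at 2.34, 7.51 and 4.20 FPKM in WT ovx and 140.3, 98.9 and 122 in WT E2, and at 9.37, 16.6 and 14.0 in KO ovx and 2.98, 58.0 and 1.01 in KO E2. Of the KO E2 libraries, replicate 2 was above and replicates 1 and 3 were below the KO ovx range. Cxcl17 rose in WT by 4.51 ± 0.90 (adjusted p = 0.00112), differed by -0.84 ± 0.90 in KO (0.510), and was lower in KO E2 than in WT E2 by -3.95 ± 0.90 (0.0136). That last call was lost without WT E2 replicate 1 or 5 or KO E2 replicate 1 or 3.

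The epithelium list was summed at 844, 616 and 1111 FPKM in WT E2 and 103, 609 and 374 in KO E2, lowest in KO E2 replicate 1 and highest in its replicate 2. Of its 6 genes, 6 rose with estradiol in WT, Cdh1 was lower in KO E2 than in WT E2 by -2.29 ± 0.64 (adjusted p = 0.0391), and 4 showed a lower response in KO. The shares of all genes called in those directions were 32.3%, 3.58% and 6.95%. The part of the epithelium in the Cxcl17 and Cx3cl1 values was not tested. The table lists Cxcl17 at chromosome 7 from 26161841 to 26351436, a span that takes in Ceacam1, Ceacam2 and Lipe, and how fragments were shared among them is not given. The ratio of Ceacam1 to Cxcl17 ran from 0.162 to 3.56 over the 18 libraries.

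Few ligands fell with estradiol. Ccl27a, a skin-type chemokine, was at 10.8, 8.87 and 4.22 FPKM in WT ovx and 1.54, 1.87 and 1.19 in WT E2, and at 6.97, 9.99 and 5.29 in KO ovx and 1.93, 1.30 and 1.62 in KO E2. Neither genotype overlapped between states. It fell by 1.75 in WT and 1.65 in KO on the log2 scale (SE 0.35 in each, adjusted p = 0.00115 and 0.0031). Its interval overlaps Il11ra1. Xcl1, the XCR1 ligand of T and NK cells, fell from 1.65, 0.961 and 1.09 to 0.0353, 0.355 and 0.120 FPKM in WT and from 1.76, 1.25 and 0.600 to 0.104, 0.367 and 0.0953 in KO, by 0.93 and 0.86 on the log2 scale (SE 0.24, adjusted p = 0.00643 and 0.0174). In KO that call was lost without KO ovx replicate 1 or 2 or KO E2 replicate 1.

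Ccl20, the CCR6 ligand of mucosal epithelium, was listed at 0 in every ovx library. It was tested only through its E2 libraries. It was at 0.0539, 1.11 and 1.58 FPKM in WT E2 and 0.227, 1.26 and 0.0508 in KO E2, and rose in WT by 0.84 ± 0.28 (adjusted p = 0.0245), a call lost without any one WT ovx library or without WT E2 replicate 2 or 5. Cxcl14, an epithelial chemokine, and Ccl17 and Ccl22, the CCR4 ligands, were called in none of the 10 comparisons. Cxcl14 was at 26.1, 13.7 and 17.2 FPKM in WT E2 and 7.54, 2.54 and 15.0 in KO E2, where the groups overlapped.

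Of the 10 tested receptors, 8 were higher in KO E2 than in WT E2 and 9 rose with estradiol in KO, while 2, Cx3cr1 and Cxcr7, rose in WT. The shares of all genes called higher were 4.91%, 15.9% and 32.3% in that order. Ccr1, Ccr1l1, Ccr7, Cxcr2 and Cxcr6 were tested only through E2 libraries. The receptor sum was 12.0, 16.7 and 12.2 FPKM in WT ovx and 14.7, 32.3 and 27.7 in WT E2, and 14.2, 16.3 and 16.1 in KO ovx and 69.8, 69.6 and 106 in KO E2. The KO E2 libraries lay above all others. Chemokine receptors are found mainly on white blood cells, and the marker lists of such cells are given with them.

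Cxcr2, the receptor of the ELR chemokines on neutrophils, was at 0.141, 0.404 and 0.754 FPKM in WT E2 and 6.98, 1.68 and 3.66 in KO E2, with every other library at or under 0.187. The groups did not overlap. Cxcr2 was higher in KO E2 by 1.72 ± 0.27 (limma adjusted p = 0.00151), and the call was kept without any single library. It rose with estradiol in KO by 2.08 ± 0.27 (6.44e-05), while the WT difference of 0.45 ± 0.27 was not called (0.186). Only its 3 KO E2 libraries reached 1 FPKM, so it was tested because it was high there. The genes tested were fixed from all 18 libraries in these fits, so the kept call is no separate support. The difference of the responses was 1.64 ± 0.38 (0.0174). The summed neutrophil list was 186, 495 and 726 FPKM in WT E2 and 14776, 1858 and 1441 in KO E2, led by S100a8 and S100a9, and both Cxcr2 and the list were highest in KO E2 replicate 1.

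Of 9 neutrophil markers, 6 were higher in KO E2 than in WT E2, and 9 rose with estradiol in KO and 4 in WT. The shares of all genes called higher were 4.91%, 15.9% and 32.3% in that order. Camp and Ngp, granule proteins of maturing neutrophils, were higher in KO E2 by 5.11 ± 0.54 (adjusted p = 0.000199) and 5.22 ± 0.78 (0.00096). The part of neutrophils in the chemokine values was not tested.

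Ccr1, a receptor of monocytes and neutrophils, was at 0.207, 1.29 and 1.18 FPKM in WT E2 and 12.2, 3.36 and 4.82 in KO E2. It was higher in KO E2 by 1.93 ± 0.31 (adjusted p = 0.00171) without overlap and kept the call without any single library. Ccr1l1, a neighbour and close relative of Ccr1, was at 0.397 to 0.766 times the Ccr1 level in the 7 libraries with both above 0.1 FPKM, so its separate value is uncertain. It was higher in KO E2 by 1.47 ± 0.27 (0.00433). Ccr1 and Ccr1l1 were tested only through E2 libraries, Ccr1l1 through those of KO alone.

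Ccr2, the receptor of Ccl2 on monocytes, was at 1.61, 3.56 and 3.39 FPKM in WT E2 and 3.77, 17.7 and 18.6 in KO E2. KO E2 replicate 1, which had the highest Ccl2, was here close to the WT libraries. Ccr2 was higher in KO E2 by 1.69 ± 0.49 (adjusted p = 0.0452), lost without any one WT E2 library or without KO E2 replicate 2 or 3.

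Ccr2 rose with estradiol in KO by 2.71 ± 0.49 (adjusted p = 0.000968), and the WT difference of 0.21 ± 0.49 was not called (0.739). The summed macrophage and monocyte list was 249, 652 and 765 FPKM in WT E2 and 1050.3, 921 and 3253 in KO E2, highest, like Ccr2, in KO E2 replicate 3. Of its 10 genes, 2 were higher in KO E2 than in WT E2, Csf1r by 2.22 ± 0.45 (0.00729) and Fcgr1 by 1.11 ± 0.21 (0.00427), and 6 rose with estradiol in WT and 10 in KO. The shares of all genes called higher were 4.91%, 32.3% and 15.9% in that order. The part of the list's cells in the Ccr2 values was not tested.

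Cxcr6 and Ccr7, receptors of T cells and dendritic cells among others, were at low levels. Cxcr6 was at 0.617, 3.79 and 2.00 FPKM in WT E2 and 5.70, 10.5 and 4.62 in KO E2, higher by 1.41 ± 0.33 (adjusted p = 0.015), lost without WT E2 replicate 1, and its interval overlaps Fyco1. Ccr7 was at 0.0783, 1.38 and 0.163 FPKM in WT E2 and 1.88, 1.57 and 1.04 in KO E2, higher by 0.78 ± 0.23 (0.0445), a call lost under both rescalings of the libraries and without WT E2 replicate 1 or 5 or KO E2 replicate 1 or 2. The summed T and NK cell list was 1.25, 12.0 and 2.90 FPKM in WT E2 and 13.7, 21.2 and 15.4 in KO E2, and 4 of its 6 tested genes, Cd3g, Cd3e, Cd3d and Cd2, were higher in KO E2, by 1.34, 1.18, 1.13 and 0.86. The share of all genes called higher there was 4.91%. The list summed to at most 4.35 FPKM in any intact or ovx library, so its genes may have been tested mainly through E2 libraries. WT E2 replicate 2 stood near the KO range for the list and both receptors, and the part of these cells was not tested.

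Cxcr4, the receptor of Cxcl12, was the only member with a call in the mean over the 3 states that held without any single library. It was at 4.15, 6.27 and 1.09 FPKM in WT intact and 3.67, 4.38 and 8.53 in KO intact, at 2.48, 3.57 and 2.53 in WT ovx and 6.48, 8.34 and 12.3 in KO ovx, and at 0.917, 2.57 and 2.99 in WT E2 and 9.30, 7.65 and 28.7 in KO E2. The genotypes overlapped in the intact state and not in the other two. The mean difference was 1.36 ± 0.29 (limma adjusted p = 0.0143), and those of the states were 0.54 ± 0.49 (0.605), 1.35 ± 0.49 (0.126) and 2.20 ± 0.49 (0.0127), the last lost without WT E2 replicate 1 or KO E2 replicate 3. Over the states, 3 members were called higher in KO, Cxcr4, Ccr1 and Cxcr2, and none lower, with a median of 0.39 against 0.01 for all genes, where 5.90% of all genes were called, 4.17% higher and 1.73% lower. Ccr1 (0.64 ± 0.18, 0.049) and Cxcr2 (0.59 ± 0.16, 0.038) were at or under 0.312 FPKM in every intact and ovx library, and their calls were lost without 15 and 13 of 18 single libraries. The count was 8 without KO E2 replicate 2, and after quantile normalization 2 members were higher and 1, Ccl11, lower.

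Cx3cr1, the fractalkine receptor of monocytes and macrophages, and Cxcr7, which takes up Cxcl12, rose in both genotypes. Cx3cr1 was at 1.21, 2.96 and 3.71 FPKM in WT E2 and 2.40, 4.90 and 9.31 in KO E2, with a rise of 0.99 ± 0.38 in WT (adjusted p = 0.0424) and 2.10 ± 0.38 in KO (0.000957). Cxcr7 was at 8.35, 10.4 and 7.85 FPKM in WT E2 and 14.0, 7.68 and 7.69 in KO E2, with a rise of 1.01 ± 0.34 in WT (0.0255) and 1.49 ± 0.34 in KO (0.00539). The genotypes overlapped under estradiol for both. In WT the Cx3cr1 call was lost without any one WT ovx library or without WT E2 replicate 2 or 5, and that of Cxcr7 under both rescalings and without WT ovx replicate 1 or 2 or WT E2 replicate 2.

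**Figure D5:**
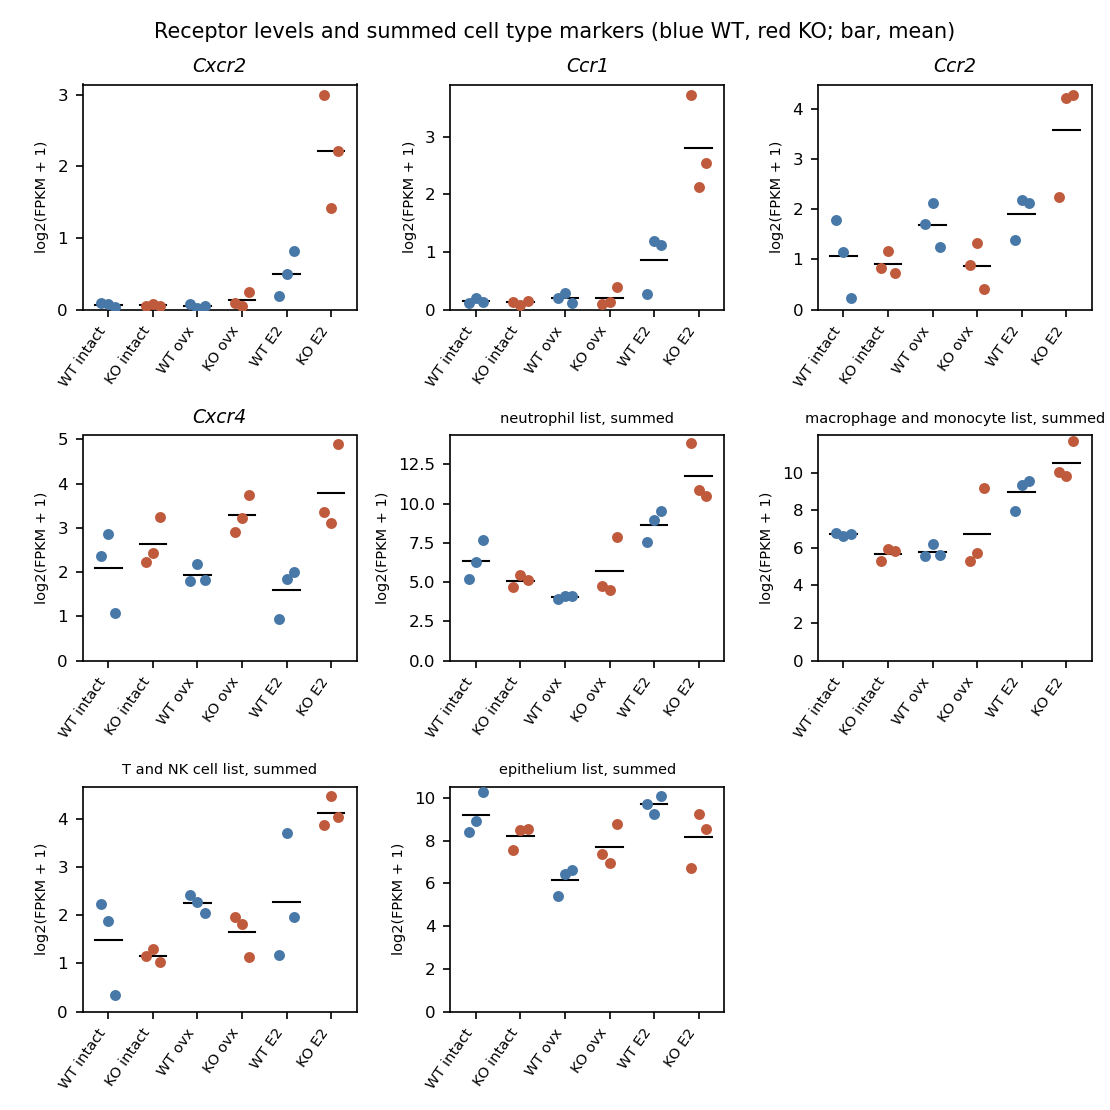
Levels of 4 receptors and the summed levels of 4 marker lists as log2(FPKM + 1) in each library, blue for WT and red for KO, with a bar at the mean of 3 libraries. Cxcr2 and Ccr1 of the KO E2 libraries lie above all other points, and the neutrophil list does as well, whereas the epithelium list is lower in each KO E2 library than in any WT E2 library, by little in KO E2 replicate 2.

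Without the pellet no member passed the test between the genotypes. In the intact state no member was called between KO and WT, with 7 at an unadjusted p under 0.05, where 2.18% of all genes were called, 1.19% higher and 0.993% lower, and the median member differed by -0.01 against -0.04 for all genes. In the ovx state none was called either, with 5 at an unadjusted p under 0.05, where 5.42% of all genes were called, 4.63% higher and 0.791% lower, and the medians were -0.03 and 0.09. A fit to the 6 ovx libraries alone called 6 members, Ccl11, Ccl5, Cxcl12, Cxcl13, Cxcl15 and Cxcr4. The largest ovx differences of the fit to all libraries were those of Cxcl12, -2.03 ± 0.83 (adjusted p = 0.171), Cxcl17, 1.40 ± 0.90 (0.407), and Cxcr4, and for these 3 the ovx libraries of the genotypes did not overlap.

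The largest intact differences belonged to the Ccl21 copies. Ccl21a was at 0.990, 64.4 and 10.7 FPKM in WT intact and 138, 266 and 57.5 in KO intact. WT intact replicate 2 lay within the KO range, and the difference was 3.49 ± 0.91 for Ccl21a (adjusted p = 0.0603), 3.49 ± 0.91 for Ccl21c (0.0600) and 3.42 ± 0.89 for Ccl21b (0.0600). Without WT intact replicate 2, or with a term for the library sets, the 3 copies were called. The lymphatic endothelium list, whose cells are a known source of Ccl21, was summed at 0.888, 9.10 and 2.65 FPKM in WT intact and 26.2, 40.5 and 12.1 in KO intact, in the same order of libraries within each genotype. Of its 3 tested genes, 3 were higher in KO intact, Lyve1 by 2.23 ± 0.45 (0.0218), Mmrn1 by 2.09 ± 0.46 (0.0338) and Flt4 by 1.61 ± 0.29 (0.0103), against 1.19% of all genes called higher there. The part of these vessels in the Ccl21 values was not tested.

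The next comparisons set intact against ovx libraries, for which the library set and the ovaries cannot be told apart. Between intact and ovx WT libraries 2 members were higher and 7 lower, where 45.3% of all genes were called, 29.9% higher and 15.4% lower, with a median of -0.14 against 0.21 for all genes. Cxcl12 was lower in intact, at 4.73, 18.3 and 0.849 FPKM against 74.0, 85.7 and 85.9 in ovx, by -3.81 ± 0.83 (adjusted p = 0.00236). Cxcl17 was higher in intact, at 26.9, 86.7 and 140.2 FPKM against 2.34, 7.51 and 4.20 in ovx, by 3.73 ± 0.90 (0.00428), and Cxcl16, at 10.8, 28.3 and 23.4 FPKM, by 1.63 ± 0.35 (0.00211). For these 3 the groups did not overlap, and together with Ccl27a (-1.97 ± 0.35, 0.000671) they were the members called without any single library.

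Ccl11 was lower by -1.31 ± 0.41 (adjusted p = 0.0186), the Ccl21 copies by -2.34 to -2.36 (0.0418 to 0.0481) with overlapping libraries, and Xcl1 by -0.65 ± 0.24 (0.0406), and each of these calls was lost without 3 or 5 of 6 single libraries. WT intact replicate 4 was the lowest library of its group for Ccl27a, Cxcl12, Xcl1 and the blood endothelium list, whose sum was 9.99, 7.69 and 1.41 FPKM in WT intact and 22.5, 25.9 and 23.7 in WT ovx. The count was 4 without WT intact replicate 4 or WT ovx replicate 3, and 5 without WT ovx replicate 1 or 2.

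In KO, 1 member was called between intact and ovx and 4 were at an unadjusted p under 0.05, where 15.9% of all genes were called, 7.14% higher and 8.74% lower, with medians of -0.04 and 0.09. Cxcl15 was at 2.07, 2.35 and 6.51 FPKM in KO intact and 0.0497, 0.0891 and 0.488 in KO ovx, without overlap, and was higher by 1.84 ± 0.46 (adjusted p = 0.0147). The call was lost without KO intact replicate 4, KO ovx replicate 1 or KO ovx replicate 2, and 3 members were called without KO ovx replicate 4. After either rescaling Ccl27a was called lower as well, which made 1 higher and 1 lower. The next differences were those of Cxcl14, 2.35 ± 0.92 (0.0990), at 36.7, 60.0 and 238 FPKM in KO intact, and Ccl21a, 1.80 ± 0.91 (0.197).

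The response to ovaries differed between genotypes for no member, with 7 at an unadjusted p under 0.05, where 4.63% of all genes were called, 1.02% higher and 3.60% lower, and the medians were 0.05 and -0.14. The largest values were 4.22 ± 1.17 for Cxcl12 (adjusted p = 0.0524), 4.14 ± 1.29 for Ccl21a (0.0741) and 4.13 ± 1.29 for Ccl21c (0.0739), and Cxcl12 and the 3 Ccl21 copies were called after quantile normalization. The response to estradiol differed for 10 members, 8 with a higher and 2 with a lower response in KO, where 11.0% of all genes were called, 4.05% higher and 6.95% lower, and the medians were 1.12 and -0.14. Of these 10, 6 were receptors. Ccr1 and Cxcr2 were called without any single library, and both were tested only through E2 libraries. The count was 2 to 4 without any one WT ovx library, without KO ovx replicate 1 or 4 or without WT E2 replicate 1 or 5, 6 without KO E2 replicate 1 or 3, and 19 without WT E2 replicate 2.

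Other genes of the pathway were counted in lists. Of 22 tested genes of chemokine receptor signalling, 8 were higher in KO E2 than in WT E2 and 0 lower, among them Arrb2, an arrestin that silences receptors (1.66 ± 0.23, adjusted p = 0.000649), Rac2, a GTPase of moving white cells (1.50 ± 0.27, 0.00366), Prex1, its activator (1.48 ± 0.20, 0.000649), and Was, an actin regulator of blood cells (1.41 ± 0.24, 0.00272). Of 10 other chemoattractants and their receptors, 4 were higher, all receptors of neutrophils and other phagocytes: Fpr2 (3.00 ± 0.38, 0.000421), Fpr1 (2.96 ± 0.54, 0.00404), C5ar1 (2.24 ± 0.31, 0.000649) and Ltb4r1 (1.51 ± 0.27, 0.00375). Medians of the 2 lists were 0.66 and 1.12 against -0.05 for all genes, of which 4.91% were called higher.

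Of 15 tested cytokines and NF-kB genes known to induce chemokines, 11 rose with estradiol in WT, and 13 rose and 1 fell in KO, with medians of 0.96 and 1.73. Over all genes, 32.3% were called higher with estradiol in WT, and 15.9% higher and 11.2% lower in KO. Between KO E2 and WT E2, 4.91% were called higher, and 6.95% had a lower response in KO. Il1b, an inflammatory cytokine, was at 4.23, 22.8 and 9.40 FPKM in WT E2 and 163, 42.9 and 32.1 in KO E2, without overlap, and was higher in KO E2 by 2.51 ± 0.59 (adjusted p = 0.0158). Il17ra, a receptor subunit for IL-17, was the other gene of the list called there, by 1.06 ± 0.20 (0.00514). Of 7 tested interferon genes, 5 rose with estradiol in WT, led by Isg15 (3.94 ± 0.58, 0.000184) and Irf7 (3.93 ± 0.60, 0.000227), and 3 rose in KO, Gbp2, Irf1 and Ifngr1. The response in KO was lower for Ifit1 (-3.001 ± 0.84, 0.0339), Isg15 (-2.89 ± 0.82, 0.037) and Irf7 (-2.87 ± 0.85, 0.0432).

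Of 12 genes that process or present chemokines, Mmp9 and Mmp8, neutrophil proteases that cut them, were higher in KO E2 than in WT E2, by 3.27 ± 0.51 (adjusted p = 0.00136) and 2.73 ± 0.56 (0.00772). Adam10 and Adam17, which shed Cx3cl1 and Cxcl16 from the membrane, rose with estradiol in WT by 1.67 ± 0.36 (0.00192) and 1.41 ± 0.32 (0.0027). Of the 2 tested atypical receptors, Darc and Ccrl2, both rose with estradiol in KO, by 1.58 ± 0.37 (0.0055) and 2.00 ± 0.49 (0.00749). Pf4, a chemokine of platelets and macrophages, was at 0.915, 4.75 and 1.46 FPKM in WT E2 and 28.5, 3.74 and 61.2 in KO E2 and was higher in KO E2 by 2.78 ± 0.66 (0.0178), although KO E2 replicate 2 lay below WT E2 replicate 2. Ppbp rose with estradiol in WT by 2.27 ± 0.72 (0.0183), at 29.2, 0.640 and 1.45 FPKM. Over all genes tested, 4.91% were called higher in KO E2 than in WT E2. With estradiol, 32.3% of all genes were called higher in WT and 15.9% in KO.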

How the data were processed

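Uterine RNA was sequenced from 18 libraries in 6 groups, from stranded, single-end mRNA libraries per the labels' protocols. The deposited values are FPKM per gene, which the authors made, and Cufflinks 2.0.2 and Cuffdiff are the tools in the submitters' processing notes. The aligner, annotation and build are not given in the sources used here. These units keep no read depth, so depth is unknown and no counting error is given. Columns were mapped to samples by title, and 0 columns of other samples were present. Genes with at least 1 FPKM in at least 3 libraries (13898 of 25791) were tested on log2(FPKM + 1) with limma 3.58.1 (R 4.3.3, trended empirical Bayes, all 18 libraries in 1 fit, 10 comparisons, two-sided, Benjamini-Hochberg over all genes tested, threshold 0.05), a fit also tested on simulated data. Tables and plots used Python 3.11.15, numpy 2.4.6, pandas 2.3.3 and matplotlib 3.10.9. The members and the gene lists were chosen with earlier results of these data known. Members were named when called in any comparison, when a group mean reached 10 FPKM, or as the 3 largest changes of a comparison with fewer than 3 calls, and of each other list at most the 4 largest called changes were named, with Camp, Ngp, Mmp8, Mmp9 and the marker genes chosen after their values were seen. One receptor is counted in the totals but its values are not reported here. Alternatives were a pseudocount of 0.1, no filter, median-ratio scaling, quantile normalization, only the compared groups, a replicate block, a term for the library sets and leaving out each library. Promoter windows came from RefSeq on GRCm38.p6 and were matched by symbol.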

Additional observations from a re-analysis of the deposited data

Results flagged for a closer look

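For 10 members the response to estradiol differed between the genotypes, by the interaction term of the fit in limma at an adjusted p under 0.05. The response was higher in KO for 8 members, among them Cxcl12 (a log2 difference of responses of 4.33), the stromal CXCR4 ligand, Ccl9 (2.40), a CCR1 ligand, and the receptors Ccr2 (2.50), Ccr1 (1.93), Cxcr2 (1.64), Cxcr6 (1.50) and Ccr1l1 (1.49). It was lower in KO for Cxcl17 (-5.35), an epithelial chemokine, and Cx3cl1 (-2.19), or fractalkine. The calls of Ccr1 and Cxcr2 held without any single library, that of Cxcl17 was lost without WT ovx replicate 1, and the other 7 calls were lost without 6 to 10 of 12 single libraries. Ccr1 and Cxcr2 were tested only through E2 libraries, Cxcr2 through those of KO alone. With a replicate block in the fit, none of the 10 was called.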

How the results depend on the processing

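No named member reversed: of 702 values without 1 library, 502 kept their side of the threshold, 193 lost the call and 7 gained it, and of 671 other values 517, 139 and 15. Between KO E2 and WT E2, 16 members were called, 9 with a pseudocount of 0.1, 0 in the compared groups alone (20 at an unadjusted p under 0.05), and 4 to 19 without 1 library. In the intact state 0 were called between the genotypes, 3 (the Ccl21 copies) after quantile normalization or with the library set term, and 0 to 3 without 1 library. In ovx 0 were called, 1 without the filter, 2 after quantile normalization, 6 in the compared groups alone, and 0 without any 1 library. Over the states 3 were called, 1 with a pseudocount of 0.1, without the filter or with the set term, and 1 to 8 without 1 library. For E2 against ovx the counts without 1 library were 11 to 22 in WT and 27 to 30 in KO. For intact against ovx, WT had 9 calls, 5 in the compared groups alone and 4 to 8 without 1 library, and KO had 1, 2 after either rescaling, 3 in the compared groups alone and 0 to 3 without 1 library. The response to estradiol differed for 10, 5 with a pseudocount of 0.1, 6 without the filter or in the compared groups alone, and 2 to 19 without 1 library. The response to ovaries differed for 0, 1 after median-ratio scaling, 4 after quantile normalization, 3 with the set term, and 0 to 5 without 1 library. The same replicate number marks only a shared number here, with correlations of deviations between the genotypes of -0.03 to 0.34 within a hormone state and of -0.24 to 0.34 over all same-numbered pairs. With the replicate block the calls were 4 for KO E2 against WT E2, 1 over the states, 4 for intact against ovx in WT, and 0 for the difference in response to estradiol (10 at an unadjusted p under 0.05), and 13 and 30 for E2 against ovx in WT and KO. Without both WT E2 replicate 2 and KO E2 replicate 1, chosen after seeing the data, they were 19 for KO E2 against WT E2, 14 and 30 for E2 against ovx in WT and KO, 5 over the states and 15 for the difference in response. The cause of these changes was not tested. Rescaling moved the median of all genes in WT for E2 against ovx by -0.14 (median-ratio) and -0.29 (quantile) and for intact against ovx by -0.15 and -0.16, and every called member kept its direction under both. The compared-groups fit for the mean of the states is the fit to all libraries, and a set term could not be fitted for intact against ovx. Depth is unknown, which limits statements on members under 1 FPKM.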

Other observations

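Of the 16 members under the level of testing, Ccl26 and Ccl28 were listed at 0 in every library. The highest library of Cxcl11, a CXCR3 ligand, was KO E2 replicate 2 at 2.80 FPKM, and the same library was the highest for its receptor Cxcr3 at 1.78 FPKM. Cxcr5, the receptor of Cxcl13, was highest in KO E2 replicate 3 at 1.22 FPKM, the library with the highest Cxcl13. Ccr3, an eosinophil receptor, reached 1.06 FPKM in KO E2 replicate 1, and Cxcr1, a neutrophil receptor, 0.980 FPKM in KO E2 replicate 3.

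The CCR4 ligands Ccl17 and Ccl22 were high in single libraries of both genotypes under estradiol. Ccl17 was at 0.446, 12.7 and 0.271 FPKM in WT E2 and 0.816, 5.85 and 0.415 in KO E2, and Ccl22 at 0.165, 5.54 and 0.234 in WT E2 and 1.06, 3.35 and 1.12 in KO E2. The second replicate was the highest of each group for both genes. The summed dendritic cell list was 1.04, 3.44 and 1.76 FPKM in WT E2 and 2.74, 5.96 and 5.42 in KO E2, also highest in the second replicate.

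Other marker lists gave few calls between KO E2 and WT E2 in limma. None of the tested genes of the B and plasma cell, eosinophil, mast cell, dendritic cell, adipocyte, stroma, smooth muscle or blood and lymphatic endothelium lists was called there, and no platelet gene reached the level of testing. The summed adipocyte list was 4.83, 45.3 and 2.72 FPKM in WT E2 and 428, 4.91 and 2311 in KO E2, so that KO E2 replicates 1 and 3 were high and replicate 2 was not.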
